A study of Homo sapiens with 4 samples.

Results

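The genes described here are 39 genes of asparagine-linked (N-) glycosylation, of the hexosamine pathway that feeds it and of the lectin chaperones that read its product, as listed by symbol. Current or older symbols in the array's annotation were matched, probe sets naming a single gene were kept, and the brightest probe set stood for each gene. This gave 37 of the 39 genes, out of 19775 genes with such a probe set. PGM3 and ALG11 had no such probe set in the annotation used and were not analysed here.

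RNA came from MCF10A, an established non-tumorigenic line of human mammary epithelium, grown in DFCI-1 medium and harvested without further treatment. There were 4 Affymetrix U133 Plus 2.0 arrays, which measure each transcript as the brightness (intensity) of a set of short probes. On the 2 control arrays the cells carried a control short hairpin RNA (shRNA). On the other 2, labelled double knockdown (dKD), they carried shRNAs against Cbl and Cbl-b, ubiquitin ligases that act on activated receptor tyrosine kinases. Whether the 2 arrays of a group are separate cultures, and how many clones or hairpins were used, is not stated in the labels, so the p-values rest on a spread between arrays that may be technical.

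N-glycosylation begins when the hexosamine pathway turns fructose 6-phosphate into UDP-N-acetylglucosamine. In the membrane of the endoplasmic reticulum (ER), the ALG enzymes build a sugar tree on the lipid dolichol, and the oligosaccharyltransferase (OST) moves the whole tree onto nascent proteins. Glucosidases then trim it, calnexin and calreticulin hold the trimmed glycoprotein while it folds, and UGGT adds a glucose back to proteins that are not yet folded so that they bind again. Several of these genes are known targets of the unfolded protein response, whose factors bind the ER stress response element (ERSE).

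Of the transcripts the hairpins were aimed at, CBL read 125.9 and 84.4 in the control and 31.1 and 29.0 on the labelled double knockdown arrays (log2 change -1.37 ± 0.15 SE, limma adjusted p = 0.00139). CBLB read 64.3 and 70.0 against 94.8 and 99.5 on its brightest probe set, and was thus not lower there (log2 change 0.45 ± 0.09 SE, adjusted p = 0.0148). The group name therefore stays "labelled double knockdown" below. Other probe sets of CBL and CBLB are not reported here, and the arrays do not measure protein. Of 12 genes listed as markers of a mammary basal epithelial line, 8 had a probe set naming a single gene. All 8 lay above the brightness minimum (14.7, the median over all probe sets). Their summed intensity was 26483 to 27686 in the control and 13748 to 14783 on the labelled double knockdown arrays, a sum carried by the brightest genes. Of the 8, KRT14 (log2 change -1.62) and KRT5 (-0.73) fell, EPCAM (0.40) rose and 5 were not called, with a median log2 change of -0.13. Leukocyte markers reached that minimum in 3 of 7 and endothelial and fibroblast markers in 4 of 10 genes, with sums of 92.3 to 96.2 and 368 to 374 in the control and 87.6 to 94.6 and 289 to 292 on the labelled double knockdown arrays. Whether these differences bear on the genes below was not tested, and in bulk RNA fewer cells of a kind and less RNA per cell cannot be told apart.

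The promoters of 4 of the genes are shown first, because 3 of them hold the full ERSE and the fourth is that of GFPT1, which with CALR had the largest log2 change of the 37 genes. The windows are those of RefSeq on GRCh38.p14, each running from 250 bases before to 50 bases after a transcription start, and 34 of the 39 genes had one. In the first 3 sequences the capitals mark ERSE, searched as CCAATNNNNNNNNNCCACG on both strands, and in the last the shorter CCACG, which is the end of ERSE and so overlaps it.
CALR, chr19:12938359-12938658, plus strand: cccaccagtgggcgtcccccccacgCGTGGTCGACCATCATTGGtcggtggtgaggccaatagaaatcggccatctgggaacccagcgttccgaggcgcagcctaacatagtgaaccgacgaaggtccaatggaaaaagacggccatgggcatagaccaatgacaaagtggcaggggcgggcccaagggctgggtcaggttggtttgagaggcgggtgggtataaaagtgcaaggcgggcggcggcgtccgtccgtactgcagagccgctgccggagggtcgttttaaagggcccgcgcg
CANX, chr5:179698537-179698836, plus strand: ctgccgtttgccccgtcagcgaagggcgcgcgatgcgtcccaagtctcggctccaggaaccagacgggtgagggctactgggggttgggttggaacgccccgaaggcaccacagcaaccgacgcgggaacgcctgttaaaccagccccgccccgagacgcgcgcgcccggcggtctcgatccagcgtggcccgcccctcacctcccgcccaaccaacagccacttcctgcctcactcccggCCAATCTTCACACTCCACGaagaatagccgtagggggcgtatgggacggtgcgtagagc
ALG12, chr22:49918389-49918688, minus strand: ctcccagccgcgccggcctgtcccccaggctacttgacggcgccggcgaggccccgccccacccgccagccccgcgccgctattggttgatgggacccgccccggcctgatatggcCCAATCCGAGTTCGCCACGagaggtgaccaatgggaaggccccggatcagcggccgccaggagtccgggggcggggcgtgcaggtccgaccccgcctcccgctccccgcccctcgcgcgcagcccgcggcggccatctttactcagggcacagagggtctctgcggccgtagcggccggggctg
GFPT1, chr2:69387178-69387477, minus strand: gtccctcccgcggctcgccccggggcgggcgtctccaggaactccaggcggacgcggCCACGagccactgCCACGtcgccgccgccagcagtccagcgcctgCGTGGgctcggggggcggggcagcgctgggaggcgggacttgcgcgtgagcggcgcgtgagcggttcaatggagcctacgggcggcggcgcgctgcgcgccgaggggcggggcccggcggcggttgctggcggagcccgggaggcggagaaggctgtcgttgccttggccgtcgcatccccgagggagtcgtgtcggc

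ERSE was found in windows of 3 of these 34 genes, CALR, CANX and ALG12, and in 0.0769% of all 35116 windows. The CALR match lies on the opposite strand, at -225 to -207 relative to the start. That of ALG12 lies at -134 to -116, and that of CANX in a stretch shared by 3 of its 4 windows. Its position depends on the start used. In the CANX window printed it lies at -9 to 9, and in the others that hold it at -151 to -133 and -189 to -171. Counted by gene, with any window of a gene, ERSE was found in 0.0916% of all 27305 genes with a window. CCACG alone was found in 23 of the 34 genes and in 42.1% of all genes (38.1% of windows), and the GFPT1 window holds 3 copies. Windows of ALG1, CANX, PGM3 and UGGT2 hold as many, and that of ALG11 holds more. The related elements ERSE-II (ATTGGNCCACG), the core of the unfolded protein response element (TGACGTGG) and the CARE element (TGATGNAAT) were found in none of the members' windows and in 0.0541%, 0.729% and 0.991% of all windows. A match is a run of letters and not a measured binding site. Among the genes with ERSE, CALR passed the test below, whereas CANX and ALG12 on their brightest probe sets did not.

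Of the 37 genes, all of which reached the brightness minimum, 9 were higher on the labelled double knockdown arrays and 0 were lower at an adjusted p under 0.05 (limma, Benjamini-Hochberg over all 12951 genes tested). Over all genes tested, 9.41% were called higher and 6.60% lower. GFPT1, the first enzyme of the hexosamine pathway, and CALR, the chaperone calreticulin, rose most on this scale. OSTC, RPN1 and MAGT1 of the OST, the folding sensors UGGT1 and UGGT2, the mannosidase MAN1A2 and the glucosyltransferase ALG5 rose less. Of the 28 genes not called, 16 had a positive and 12 a negative log2 change, from -0.31 to 0.28. The median log2 change of the 37 was 0.13, beside -0.01 over all genes tested. Both labelled double knockdown arrays lay above both control arrays for 21 of the 37 genes and below them for 7, where 28.1% and 29.3% of all genes tested did so. Beside the 0 genes called lower, 3 were lower at an unadjusted limma p under 0.05, namely DOLK, GANAB and RPN2. At that looser threshold CANX and DPAGT1 were higher, beside the 9 genes called. The share of all genes tested that reached it is not given here, so the 3 cannot be set against a background. DOLK was called lower under 4 of 14 alternatives (array centring, quantile normalization, the mean of probe sets and the replicate block) and GANAB without control replicate 2.

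**Figure D1:**
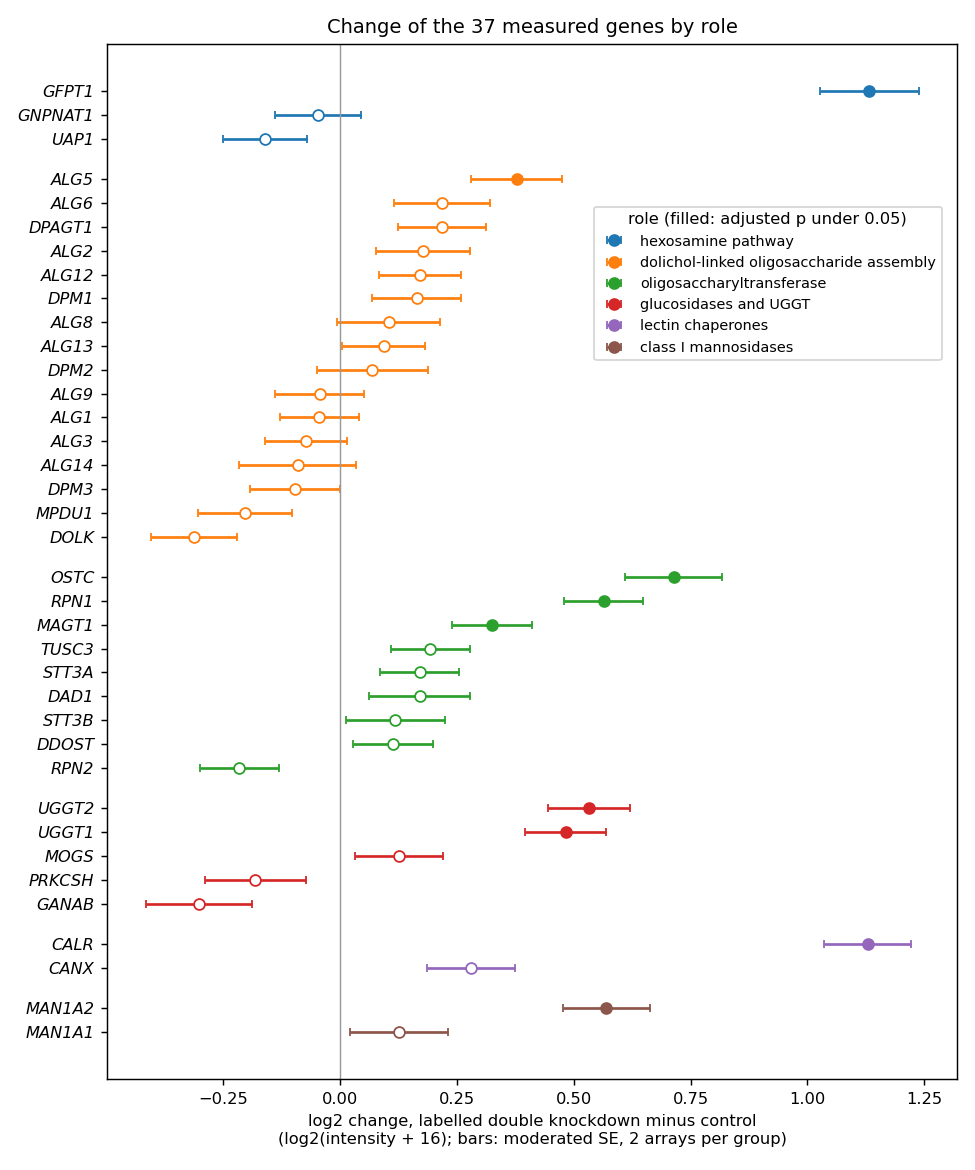
Log2 change (labelled double knockdown minus control, on log2(intensity + 16)) of the 37 measured genes, ordered by role, with the moderated standard error from 2 arrays per group. The 9 filled points passed an adjusted p of 0.05, and all of them lie to the right of 0, with GFPT1 and CALR at 1.13.

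In the hexosamine pathway, the first step rose and the measured later steps did not pass the test. GFPT1, which makes glucosamine 6-phosphate and sets the rate of the pathway, read 562 and 488 on the control arrays and 1239 and 1101 on the labelled double knockdown arrays. The groups did not overlap, and the lower of the labelled double knockdown arrays was well above the higher control array. The intensity + 16 rose 2.19-fold (log2 change 1.13 ± 0.11 SE, n = 2 per group, limma adjusted p = 0.000652). All 4 GFPT1 probe sets were positive, at log2 changes of 1.08 to 1.67, and the call held in all 15 alternatives. The 2 brighter probe sets are of a type that can match several transcripts. The 2 dimmer ones, of a type not known to, gave 1.51 and 1.67. GNPNAT1, which acetylates glucosamine 6-phosphate, read 364 and 333 against 327 and 346, with overlapping groups (log2 change -0.05 ± 0.09 SE). UAP1, which forms the final UDP-sugar, read 1975 and 1812 against 1657 and 1723 (log2 change -0.16 ± 0.09 SE, adjusted p = 0.275). Its labelled double knockdown arrays were both below the control arrays, without passing the test.

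The lectin chaperones differed in size of change. CALR, the soluble calreticulin of the ER lumen, read 223 and 198 in the control and 488 and 470 on the labelled double knockdown arrays. The groups lay far apart (2.19-fold, log2 change 1.13 ± 0.09 SE, adjusted p = 0.000339), and the 3 CALR probe sets gave log2 changes of 1.01, 1.13 and 1.15. The 2 brighter ones are of a type that can match several transcripts. The dimmest, of a type not known to, read 21.9 and 23.5 against 64.2 and 60.1 (1.01). The call of CALR held in all 15 alternatives. CANX, the membrane-bound calnexin, read 4076 and 3615 against 4649 and 4678 on its brightest probe set. These groups did not overlap either, but the change missed the threshold (log2 change 0.28 ± 0.09 SE, adjusted p = 0.0842). All 4 CANX probe sets above the minimum were positive, at log2 changes of 0.28, 0.24, 0.18 and 0.54. CANX was called higher with the mean of its probe sets (adjusted p = 0.0291), with a trended prior variance (0.0285) and on its brightest probe set of a type not known to match several transcripts, which read 166.0 and 166.0 in the control and 241 and 255 on the labelled double knockdown arrays (0.00468). The difference in response between CALR and CANX was not tested.

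Among the OST genes, 3 of 9 rose and none fell, with a median log2 change of 0.17. The shares over all genes tested were 9.41% called higher and 6.60% called lower, and 9 genes are few for a share. Of the 3, MAGT1 kept its call in the fewest alternatives. OSTC, a subunit that couples the STT3A form of the enzyme to the protein channel, read 2637 and 3039 in the control and 4440 and 4878 on the labelled double knockdown arrays. The 1.64-fold rise (log2 change 0.71 ± 0.10 SE, adjusted p = 0.00457) held in all 15 alternatives, and it rests on a single probe set. RPN1, ribophorin I, read 909 and 928 against 1340 and 1394, a pair of narrow and well separated groups (1.48-fold, log2 change 0.56 ± 0.08 SE, adjusted p = 0.00535). RPN1 lost its call without double knockdown replicate 2 (adjusted p = 0.063), where the count over all genes fell from 2074 to 536.

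RPN2, ribophorin II, is a subunit of the same complex and went the other way in level without passing the test. It read 1699 and 1626 in the control and 1440 and 1418 on the labelled double knockdown arrays (log2 change -0.22 ± 0.08 SE, adjusted p = 0.129). Both labelled double knockdown arrays were below both control arrays on each of its 3 probe sets, at log2 changes of -0.22, -0.17 and -0.27. All 3 are of types that can match several transcripts. Neither catalytic subunit passed the test: STT3A, which acts on proteins as they enter the ER, had a log2 change of 0.17 ± 0.08 SE (adjusted p = 0.218), and STT3B, which acts on sites that STT3A skipped, 0.12 ± 0.11 SE (0.513). The shared subunits DAD1 (0.17 ± 0.11 SE) and DDOST (0.11 ± 0.09 SE) were positive and not called.

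MAGT1 and TUSC3 are alternative oxidoreductase subunits of the STT3B form, and in both the probe sets disagreed. MAGT1 read 739 and 706 against 890 and 927 on its brightest probe set (1.25-fold, log2 change 0.32 ± 0.09 SE, adjusted p = 0.04). Its other probe sets gave log2 changes of 0.03 and -0.08. The call was lost in 7 of the 15 alternatives: with a constant of 1, with the mean of probe sets (log2 change 0.09), on a probe set of a type not known to match several transcripts (0.03, adjusted p = 0.873), and when any of the 4 arrays was left out. The brightest TUSC3 probe set read 675 and 708 against 786 and 800 (log2 change 0.19 ± 0.08 SE, adjusted p = 0.17). A second TUSC3 probe set gave 0.20, while the 2 dimmer ones gave -0.34 and -0.21. The 2 positive probe sets are of a type that can match several transcripts, and the 2 dimmer ones of a type not known to.

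In the glucose cycle of the ER, 2 of 5 genes rose and none fell. All genes tested had shares of 9.41% called higher and 6.60% called lower, and 5 genes are few for a share. UGGT1, the folding sensor that re-glucosylates misfolded glycoproteins, read 220 and 206 in the control and 303 and 305 on the labelled double knockdown arrays (1.40-fold, log2 change 0.48 ± 0.09 SE, adjusted p = 0.0102). UGGT2, its paralog, read 100.4 and 101.3 against 160.0 and 146 (1.45-fold, log2 change 0.53 ± 0.09 SE, adjusted p = 0.00759). Neither gene had overlapping groups, and all 5 UGGT1 and all 4 UGGT2 probe sets above the minimum were positive, at 0.13 to 0.48 and 0.30 to 0.99. Leaving out double knockdown replicate 1 ended the calls of UGGT1 (0.0782) and UGGT2 (0.0801), and leaving out replicate 2 that of UGGT1 (0.0921).

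The glucosidases that remove glucose did not pass the test. GANAB, the catalytic chain of glucosidase II, read 260 and 211 in the control and 194 and 180 on the labelled double knockdown arrays (log2 change -0.30 ± 0.11 SE, adjusted p = 0.114). PRKCSH, the other chain of that enzyme, read 254 and 216 against 193 and 218, with overlapping groups (-0.18 ± 0.11 SE, adjusted p = 0.308). Each had a further probe set above the minimum, also negative (-0.11 for GANAB and -0.24 for PRKCSH). Both GANAB probe sets are of types that can match several transcripts. Without control replicate 2, GANAB was called lower at a log2 change of -0.45 (adjusted p = 0.0334). MOGS, glucosidase I, which removes the first glucose, had a log2 change of 0.13 ± 0.09 SE. The difference between the UGGT genes and the glucosidases was not tested.

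**Figure D2:**
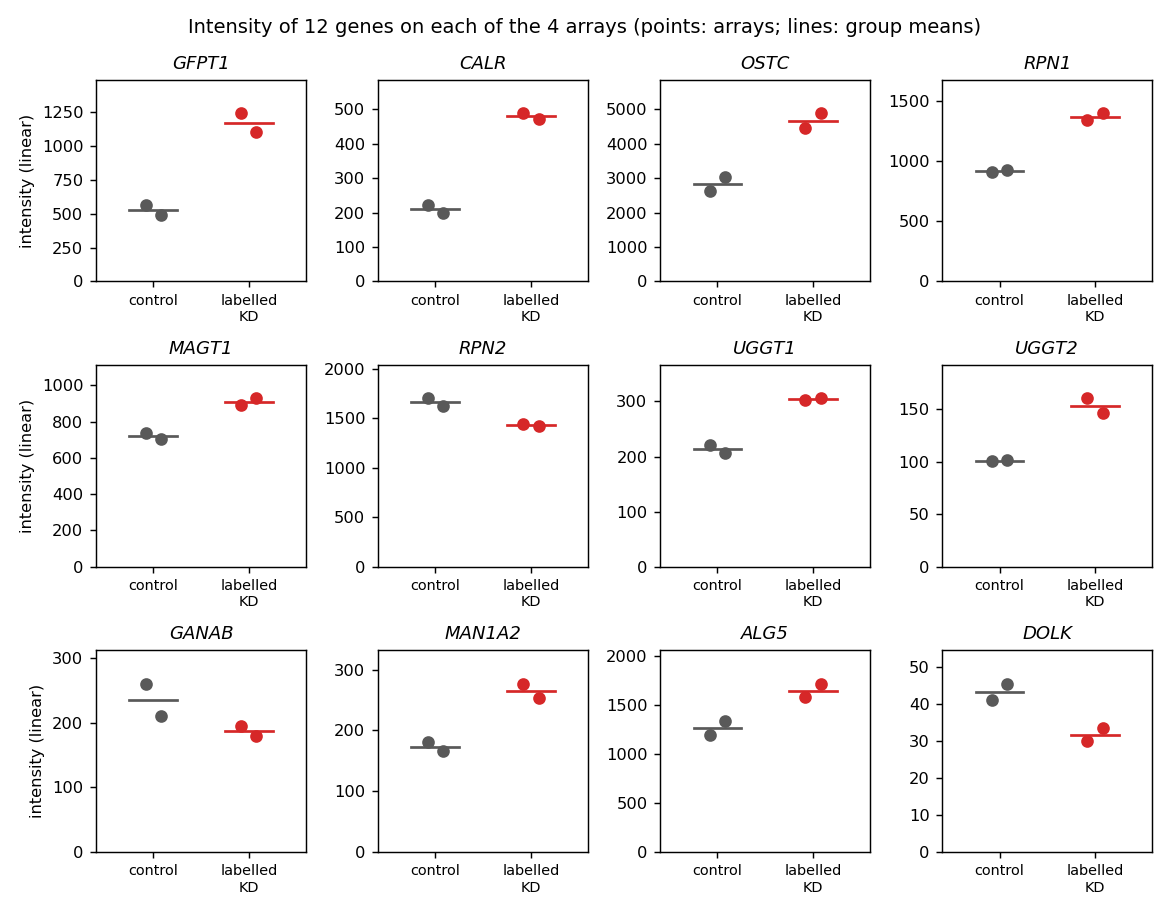
Intensity (linear axis from 0) of 12 of the genes on each of the 4 arrays, as points, with group means as lines. KD stands for the arrays labelled double knockdown. For GFPT1, CALR and OSTC the groups are far apart, whereas for RPN2, GANAB and DOLK the labelled double knockdown arrays lie lower without passing the test.

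In the assembly of the lipid-linked sugar tree, 1 of 16 measured genes rose and none fell, beside 9.41% of all genes tested called higher and 6.60% lower, so the count does not set this role apart. The genes had a median log2 change of 0.08 and a range from -0.31 to 0.38. The gene that rose was ALG5, which makes dolichol-phosphate-glucose, the donor of the glucoses later read by the glucosidases. It read 1195 and 1335 in the control and 1578 and 1719 on the labelled double knockdown arrays (1.30-fold, log2 change 0.38 ± 0.10 SE, adjusted p = 0.0364). The groups did not overlap, but the call was lost in 6 of 15 alternatives: with a constant of 1, without the brightness filter, with the mean of probe sets (log2 change 0.21), without control replicate 1 and without either labelled double knockdown array, at adjusted p up to 0.26. ALG6 and ALG8, which attach the first and the second glucose from that donor, had log2 changes of 0.22 ± 0.10 and 0.10 ± 0.11 SE and were not called.

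DOLK, the kinase that makes dolichol phosphate, was nearest to a call in the other direction. It read 40.9 and 45.4 in the control and 29.9 and 33.3 on the labelled double knockdown arrays (log2 change -0.31 ± 0.09 SE, adjusted p = 0.0559). Its groups did not overlap, and it is a dim gene measured by a single probe set. DPAGT1, which starts the tree by adding N-acetylglucosamine phosphate to dolichol phosphate, read 268 and 252 against 289 and 322 (0.22 ± 0.09 SE, adjusted p = 0.161). Of the enzymes that add the second sugar, ALG14 read 218 and 286 against 230 and 238, with overlapping groups, and ALG13 read 184 and 174 against 199 and 184.0. All 5 ALG13 probe sets were positive, at 0.09 to 0.48, and their mean was called higher (log2 change 0.25, adjusted p = 0.0407).

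The mannose steps had log2 changes from -0.20 to 0.18 on their brightest probe sets. ALG1 and ALG2, the mannosyltransferases of the cytosolic face, had log2 changes of -0.04 ± 0.08 and 0.18 ± 0.10 SE. On the lumenal face, ALG3 and ALG9 had -0.07 ± 0.09 and -0.04 ± 0.09 SE, and ALG12, whose promoter window holds ERSE, read 30.6 and 34.2 against 37.9 and 38.96 (0.17 ± 0.09 SE, adjusted p = 0.236). The second probe sets of ALG2 and ALG9 gave the opposite sign, at -0.18 and 0.24. Of the 3 subunits of dolichol-phosphate-mannose synthase, the catalytic DPM1 had a log2 change of 0.16 ± 0.09 SE, and its partners DPM2 and DPM3 had 0.07 ± 0.12 and -0.10 ± 0.10 SE. MPDU1, needed for the use of that donor, had -0.20 ± 0.10 SE. None of these passed the test.

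The last enzymes of the set, the Golgi mannosidases that trim the tree after it leaves the ER, gave 1 call in 2. With 2 genes no share can be set beside the 9.41% of all genes tested called higher. MAN1A2 read 181 and 165 in the control and 277 and 253 on the labelled double knockdown arrays (1.48-fold, log2 change 0.57 ± 0.09 SE, adjusted p = 0.00744). The groups were apart, and its 2 dimmer probe sets were positive as well, at 0.18 and 0.27. With the mean of all its probe sets, those below the minimum included, the log2 change was 0.17 and the call was lost (adjusted p = 0.1), as it was without double knockdown replicate 1 (0.0733). MAN1A1 read 22.5 and 20.3 against 28.3 and 21.6, close to the brightness minimum and with overlapping groups (0.13 ± 0.10 SE).

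The probe sets of a gene are separate measurements of its transcripts on the same 4 arrays, so they are no further replicates of the cells. Of the 15 genes with several probe sets above the minimum, 11 had all of them on the same side of 0. The share over all genes with several probe sets is not given here. The exceptions were ALG2, ALG9, MAGT1 and TUSC3. Among the 9 genes called higher, 8 had no negative probe set above the minimum, MAGT1 being the other, and for ALG5, OSTC and RPN1 there was only 1 such probe set.

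**Figure D3:**
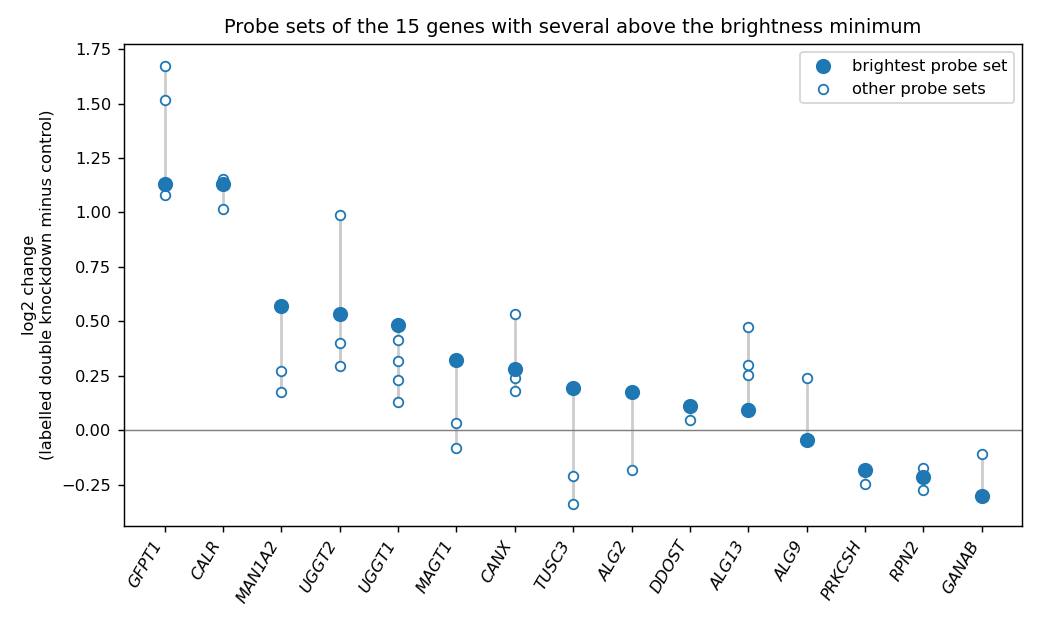
Log2 change (labelled double knockdown minus control) of every probe set above the brightness minimum, for the 15 genes that have several. Filled points are the brightest probe set of a gene and open points the others. GFPT1, CALR, UGGT1, UGGT2, CANX, ALG13, DDOST and MAN1A2 lie wholly above 0, RPN2, GANAB and PRKCSH wholly below, and MAGT1, TUSC3, ALG2 and ALG9 on both sides.

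Genes that supply or continue the pathway, or lie beside it, were read from lists drawn up by function, with earlier results of these data known. Of 22 listed genes of sugar nucleotide and dolichol supply, 14 had a probe set and 13 were tested. Of these 13, 4 rose and none fell (median log2 change 0.15), beside 9.41% of all genes tested called higher and 6.60% lower. UGDH, which turns UDP-glucose into UDP-glucuronate, read 242 and 225 in the control and 453 and 450 on the labelled double knockdown arrays (1.88-fold, log2 change 0.91 ± 0.09 SE, adjusted p = 0.000699). NUS1, a subunit of the enzyme that builds the dolichol chain, rose 1.48-fold (adjusted p = 0.00615), NANS, the sialic acid synthase, 1.39-fold (0.011), and MPI, which links fructose 6-phosphate to mannose 6-phosphate, 1.35-fold (0.0158). The call of UGDH held in 15 of 15 alternatives, that of NUS1 in 13 of 15, that of NANS in 12 of 14 and that of MPI in 11 of 14. The small OST subunits OST4, TMEM258 and KRTCAP2 were not called, at log2 changes of 0.07 to 0.12.

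Of 16 tested ER lectins, ER mannosidases and enzymes of glycan release, with PDIA3 counted among them, 4 rose and none fell (median log2 change 0.20). Among all genes tested, 9.41% were called higher and 6.60% lower. EDEM1, which acts on the glycans of misfolded proteins bound for degradation, read 186 and 147 against 343 and 300 (1.86-fold, log2 change 0.89 ± 0.12 SE, adjusted p = 0.00368). LMAN1, the lectin that carries glycoproteins from the ER towards the Golgi, read 2060 and 1889 against 3174 and 3110 (1.59-fold, adjusted p = 0.0032). Both kept their calls in 15 of 15 alternatives. The ER lectin ERLEC1 rose 1.40-fold (adjusted p = 0.0127, 13 of 15 alternatives), and PDIA3, the disulfide isomerase that works with calnexin and calreticulin, 1.27-fold (0.0487, called in 7 of 15 alternatives).

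Later and neighbouring steps were mixed. Of 19 tested genes of Golgi N-glycan processing 4 rose and none fell, beside 9.41% of all genes tested called higher and 6.60% lower. The list's median log2 change was -0.02. MAN2A1, mannosidase II, rose 1.48-fold and the galactosyltransferase B4GALT3 1.43-fold. SLC35A3, which carries UDP-N-acetylglucosamine into the Golgi, rose 1.38-fold and the sialyltransferase ST3GAL4 1.25-fold. The adjusted p ran from 0.00627 for MAN2A1 to 0.039 for ST3GAL4. In the order named, the calls of these 4 genes held in 13 of 15, 12 of 14, 13 of 15 and 8 of 14 alternatives. Of 20 genes of the glycosylphosphatidylinositol (GPI) anchor, which draws on the same dolichol-phosphate-mannose, 3 rose and 1 fell (median 0.02), shares near the 9.41% and 6.60% of all genes tested. PIGA, which acts in the first step, rose 1.99-fold from 112 and 96.2 to 220 and 227 (adjusted p = 0.000771), its partner PIGP 1.41-fold (0.0183) and PIGV 1.25-fold (0.0459), and PIGW fell 1.44-fold (0.0111). PIGV was called in 6 of 15 alternatives, PIGA in 14 of 14, PIGP in 11 of 14 and PIGW in 12 of 13.

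O-glycosylation, which does not use the dolichol-linked tree, had calls in both directions. Of 16 tested genes 3 rose and 5 fell, beside 9.41% of all genes tested called higher and 6.60% lower. The median log2 change of the list was -0.0043. The sialyltransferase ST3GAL1 rose 1.76-fold (adjusted p = 0.00139) and OGT, which uses the product of the hexosamine pathway to modify cytosolic and nuclear proteins, 1.48-fold (0.00765). GALNT10 and GALNT11, which start mucin-type chains, fell 1.64-fold (0.00244) and 1.36-fold (0.0173). ST3GAL1 and GALNT10 were called in 14 of 14 alternatives, and OGT and GALNT11 in 13 of 15. The losses of OGT included that on a probe set of a type not known to match several transcripts (adjusted p = 0.821). No difference between these lists and the N-glycosylation genes was tested.

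**Figure D4:**
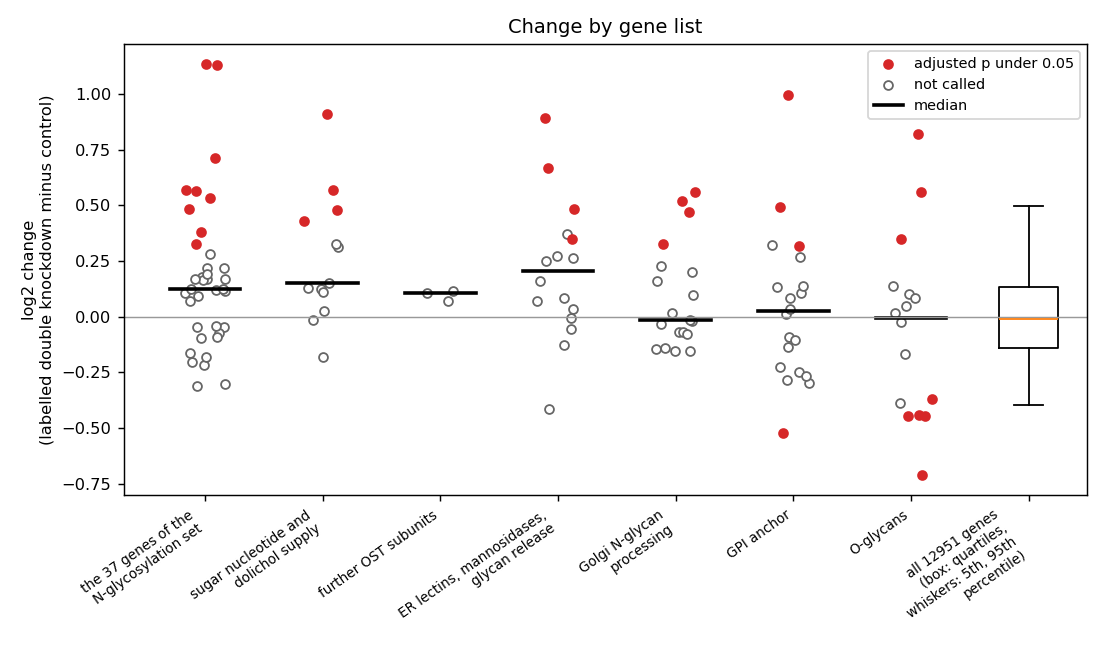
Log2 change (labelled double knockdown minus control) of the 37 genes and of 6 lists of supplying, continuing or neighbouring genes, each point a gene, red where the adjusted p was under 0.05, with the list's median as a bar. The box shows the quartiles and the 5th and 95th percentiles of all 12951 genes tested. The 37 genes and the supply, ER lectin and Golgi processing lists have called genes on the upper side alone, whereas the O-glycan list has 3 above and 5 below 0.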

How the data were processed

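The deposited table holds a linear intensity for each of 54675 probe sets on 4 arrays, as judged from its values. The authors' summarisation and normalization of the intensities are not given in the sources used here. Array medians were 14.5 to 14.7, and no further normalization was applied. Probe sets were named from the platform annotation: 41091 named 1 gene, 41037 of them matched by gene identifier to the RefSeq table of GRCh38.p14 for current symbols. Genes whose brightest probe set had a mean of at least 14.7 were tested (12951). Values were log2(intensity + 16), so changes of dim genes are understated, and a fold is of intensity + 16. Groups were compared with limma 3.58.1 in R 4.3.3 (lmFit, eBayes, two-sided, no covariate, Benjamini-Hochberg), tested first on simulated data. Every adjusted p is limma's.

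The members and the lists were chosen with earlier results of these data known. All members were named, and of each other list up to 4 called genes with the smallest p. Probe-set changes and motif matches are descriptions. Alternatives were 2 other constants, 3 normalizations, 2 brightness filters, 2 rules for probe sets, a trended prior, the replicate block and leaving out each array. The number of arrays limits the precision.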

Additional observations from a re-analysis of the deposited data

How the results depend on the processing

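Over 15 alternatives, the 37 genes gave 544 refitted changes. Of these, 505 kept their direction and their side of the threshold, 19 kept the direction but lost the call, 9 gained one and 11 had the opposite sign, none of the latter called. GFPT1, CALR and OSTC kept their calls throughout. The count of the 37 genes called higher was 7 to 10 with all arrays and 4 to 8 with an array left out (4 without double knockdown replicate 1, 5 without double knockdown replicate 2). Over all genes 2074 were called, and 536 to 1995 with an array left out (682 and 536 without double knockdown replicate 1 and 2), where fewer samples give the error. The count called lower was 0, and 1, DOLK, with array centring, quantile normalization, the mean of probe sets and the replicate block, and 0 to 1 with an array left out. The median over those of the 37 genes that a setting kept was 0.10 to 0.17 with all arrays and 0.12 to 0.18 with an array left out. The stricter brightness filter (0.167) and the rule without probe sets that match several transcripts (0.164) dropped some of the 37. With a constant of 1, which kept all 37, the median was 0.166.

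Opposite signs came with the mean of probe sets for ALG2 (-0.0021), ALG9 (0.099) and TUSC3 (-0.023) and without probe sets that match several transcripts for ALG9 (0.24) and TUSC3 (-0.34). There the other probe sets themselves have that sign, or pull the mean to it. With an array left out, the log2 change ranged from -0.021 (without control replicate 1) to 0.23 for ALG8, from -0.11 to 0.016 (without control replicate 1) for GNPNAT1, from -0.27 to 0.092 (without control replicate 2) for ALG14, from -0.11 to 0.025 for ALG9 (0.025 without control replicate 2 and 0.015 without double knockdown replicate 1) and from -0.092 (without double knockdown replicate 2) to 0.23 for DPM2. The cause was not tested.

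Arrays share numbers across groups only by title. Deviations of same-numbered arrays from their group mean correlated at 0.24 across genes. With the replicate block 2504 genes were called, 9 of the 37 higher and 1 lower, DOLK (adjusted p = 0.0389).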
